A study of Zea mays with 10 samples.

Results

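The z1A genes are one subfamily of the 19-kDa alpha zeins of maize, here 9 gene IDs of the 28580 in the deposited expression table. They were taken by gene ID, with names from a RefSeq gene table, and comprise 6 z1A1 genes (z1A1_2, z1A1_3 and z1A1_5 to z1A1_8) and 3 z1A2 genes (z1A2_1 to z1A2_3). Their transcripts were compared in 3 RNA libraries each from endosperm of inbred B73 (WT) and of B73o2 (o2), a mutant that carries opaque-2 in B73. All kernels were collected 15 days after self-pollination of greenhouse plants, and polyadenylated RNA was prepared from dissected endosperm. The labels name neither the o2 allele nor whether replicates came from separate plants or ears, so p-values measure the spread between these libraries, which may be technical. The study also mapped binding of the O2 protein by chromatin immunoprecipitation, which is not analysed here.

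Alpha zeins are the main storage proteins of the maize kernel. They are made by starchy endosperm cells during grain filling and packed into protein bodies inside the endoplasmic reticulum, where they are rich in glutamine, leucine and proline and nearly free of lysine. They belong to multigene families of tandem, near-identical copies, and the 19-kDa and 22-kDa classes are the most abundant. The O2 protein, an endosperm bZIP factor, activates many storage protein genes, best described for the 22-kDa z1C genes, and its loss gives kernels with a chalky, lysine-rich endosperm.

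The RNA libraries held 52906484 to 66795114 reads. The o2 gene had 86.1 to 163 RPKM (read number scaled to gene length and library size) in WT and 0.173 to 0.254 RPKM in o2. Reads with several mapping places made up 32.5%, 26.9% and 38.6% of the reads in WT replicates 1 to 3 and 20.8% to 21.7% in o2. The sources used here do not say how such reads were counted. Values of single near-identical copies, and sums and shares over such copies, are uncertain for that reason. The number of reads behind each RPKM value is unknown. Of 7 starchy endosperm marker names, 6 were matched, and their summed level was 3332 to 4753 RPKM in WT and 4297 to 5796 RPKM in o2. In bulk endosperm, fewer cells of a type and less RNA per cell cannot be told apart.

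In the reference assembly the z1A genes form 2 groups on one chromosome. From z1A1_5 to z1A1_9 each z1A1 gene directly follows the one before it, with 0 annotated genes between neighbours, and z1A1_2 and z1A1_3 are adjacent as well. The z1A2 group lies 541 annotated genes further on, where z1A2_1 and z1A2_2 are adjacent and 3 genes separate z1A2_2 from z1A2_3. The reference pairs GRMZM2G059620 with both z1A1_3 and z1A1_4, so the values given for z1A1_3 are those of an ID that stands for both copies. It marks z1A1_8 as a transcribed pseudogene and the other 8 IDs as protein-coding. The gene z1A1_6 is also named floury4, a locus known from a mutant zein that disturbs protein bodies.

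Transcripts of all z1A copies were far lower in o2 than in WT. The trio z1A1_7, z1A1_5 and z1A1_6 was the most abundant. In WT replicates 1 to 3, z1A1_7 (GRMZM2G353268) reached 98184, 38114 and 216738 RPKM, against 106, 162 and 1108 RPKM in the o2 replicates. Every o2 library lay far below every WT library, and replicate 3 was the highest in each genotype. By mean level z1A1_7 ranked 5 among the 28580 IDs in WT and 51 in o2. For z1A1_5 (GRMZM2G053120) the levels were 83682, 32610 and 182409 RPKM in WT and 106, 197 and 1223 RPKM in o2. It was below z1A1_7 in all WT libraries, but not in o2 replicates 2 and 3. The floury4 gene z1A1_6 (GRMZM2G353272) had 70917, 27927 and 152703 RPKM in WT and 76.4, 146 and 980.2 RPKM in o2, the lowest of the trio in each library.

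Other z1A1 copies covered a wide range of levels. The ID of z1A1_3 and z1A1_4 (GRMZM2G059620) had 14799, 5727 and 32402 RPKM in WT and 17.6, 25.9 and 161 RPKM in o2. The levels of z1A1_2 (GRMZM2G404459) were 2300, 1188 and 4704 RPKM in WT and 2.82, 2.59 and 14.4 RPKM in o2, the lowest among the protein-coding copies in all 6 libraries. The pseudogene z1A1_8 (GRMZM2G018193) had 12.02, 3.25 and 12.54 RPKM in WT. In o2 it was listed at 0 in replicate 1 and at 0.0245 and 0.0773 RPKM in replicates 2 and 3. Groups did not overlap for any of these IDs. Among all genes tested below, 11.7% had every o2 value under every WT value. For z1A1_8 this was set by the filter given below, which it passed through its WT values alone.

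The z1A2 copies lay between z1A1_6 and z1A1_2 in every library. In WT, z1A2_1 (GRMZM2G008341) had 20143, 8359 and 40151 RPKM, against 20.9, 25.7 and 274 RPKM in o2. The values of z1A2_3 (GRMZM2G026939) were 13285, 5571 and 27556 RPKM in WT and 13.9, 18.2 and 180 RPKM in o2. For z1A2_2 (GRMZM2G008913) they were 13265, 4762 and 27291 RPKM in WT and 13.4, 12.8 and 89.9 RPKM in o2. Both z1A2_1 and z1A2_3 stood higher above z1A2_2 in o2 replicate 3 than in the WT libraries.

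**Figure D1:**
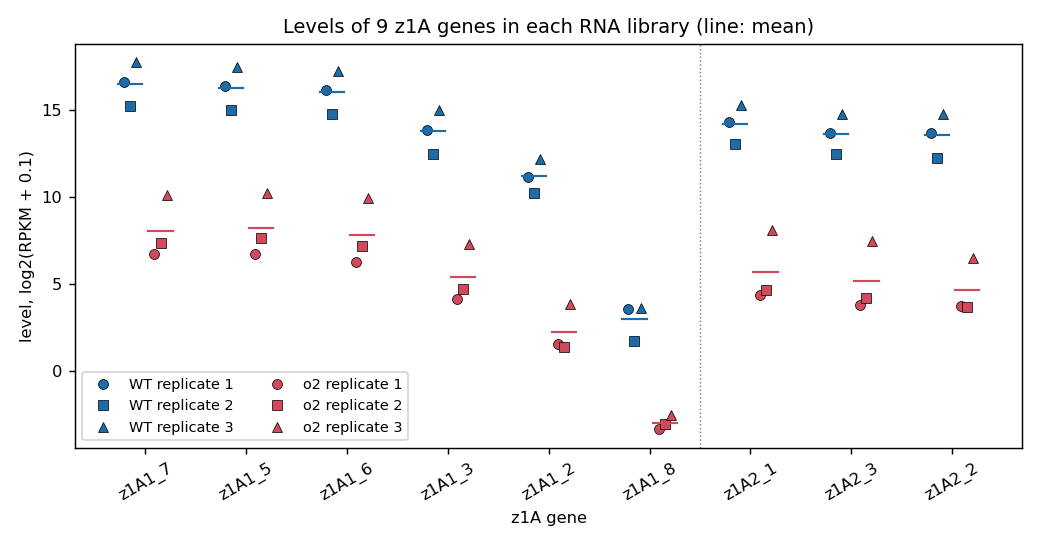
Level of each z1A gene in each RNA library as log2(RPKM + 0.1) on the y axis, with z1A1 genes left and z1A2 genes right of the dotted line; short lines are means of 3 libraries. WT and o2 points do not overlap for any gene, and replicate 3 (triangles) is the highest point in each genotype.

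All 9 genes were called lower in o2 at a Benjamini-Hochberg adjusted p under 0.05 in a limma fit of log2(RPKM + 0.1) over 18687 genes, of which 2.07% were called lower (3.56% in either direction). The o2 values lay below all WT values in 9 of 9, against 11.7% of all genes tested. The filter kept genes with at least 1 RPKM in 3 libraries, and 8 of the genes reached it in all 6. The pseudogene z1A1_8 passed through its WT values alone and so had to differ. The median log2 fold change of the 9 genes was -8.45, beside 0.05 over all genes tested. The largest falls were those of z1A1_2, at -8.92 ± 0.77 (SE; adjusted p = 0.00337), and z1A2_2, at -8.90 ± 0.94 (SE; adjusted p = 0.00714). The abundant z1A1_7 had -8.45 ± 1.05 (SE; adjusted p = 0.0123), z1A1_6 had -8.24 ± 1.08 and z1A1_5 had -8.07 ± 1.06 (SE; adjusted p = 0.0145 and 0.0147). Similar values were found for z1A2_1 (-8.48 ± 1.08), z1A2_3 (-8.46 ± 1.07) and z1A1_3 (-8.38 ± 0.97; SE; adjusted p = 0.0130, 0.0124 and 0.00991). The 8 protein-coding copies thus lay between -8.92 and -8.07. Each SE holds spread between libraries that the copies share, so it does not measure differences between copies.

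The fitted fold of z1A1_8, -5.94 ± 0.54 (SE; adjusted p = 0.00404), depends on the pseudocount of 0.1, which exceeds its o2 values. It was -7.99 with a pseudocount of 0.01 and -3.14 with a pseudocount of 1. Calls of the family rested in part on single libraries. Without o2 replicate 2 only z1A1_2 and z1A1_8 were called (adjusted p of the other copies 0.0542 to 0.0835). Without WT replicate 1 the called copies were z1A1_2, z1A1_3, z1A1_8 and z1A2_2, and without o2 replicate 1 the fall of z1A1_5 was not called (adjusted p = 0.0518). Over all 18687 genes calls also dropped, from 666 to 98 without o2 replicate 2, 160 without WT replicate 1 and 290 without o2 replicate 1. The median z1A fold was -7.98 without o2 replicate 2 and -8.41 without WT replicate 1. It moved to -9.47 without o2 replicate 3, -9.06 without WT replicate 2, -7.84 without WT replicate 3 and -7.78 without o2 replicate 1.

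**Figure D2:**
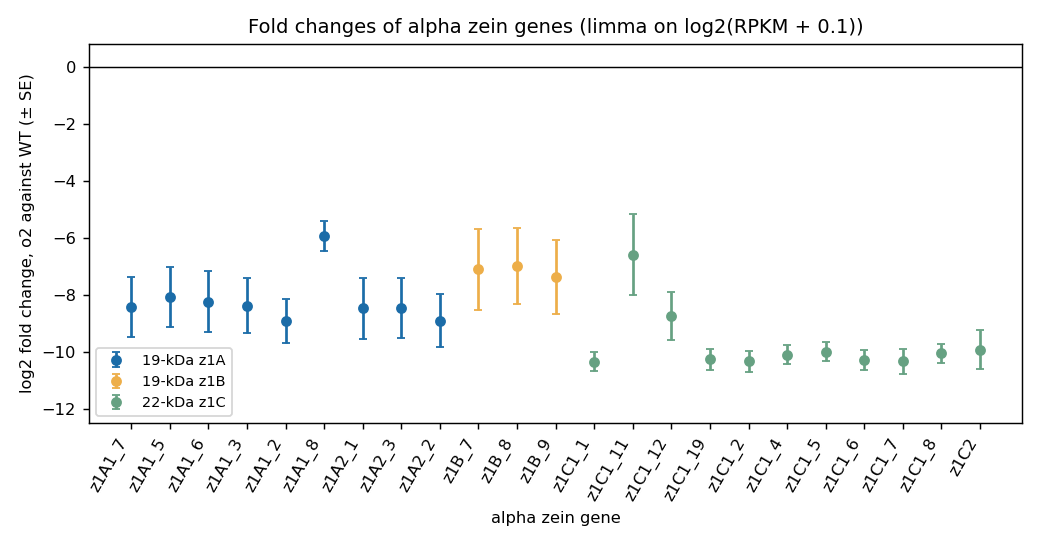
Log2 fold change (o2 against WT, limma on log2(RPKM + 0.1), bars ± SE, 3 libraries per genotype) of each z1A gene beside the z1B and z1C genes. The 8 protein-coding z1A copies lie between -8.92 and -8.07, with wider bars than most z1C genes.

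Summed over the 9 genes, WT replicates 1 to 3 held 316586, 124262 and 683966 RPKM, against 357, 590.2 and 4031 RPKM in the o2 replicates. The mean sum in o2 was 0.443% of that in WT. The difference in the log2 sum was -8.31, with p = 0.1 in an exact two-sided permutation test, the lower limit for 3 against 3 libraries. It was -9.35 without o2 replicate 3, -8.94 without WT replicate 2, -7.71 without WT replicate 3 and -7.60 without o2 replicate 1. Under quantile normalization it was -5.77, and -6.17 when libraries were rescaled to the total of genes outside the zein lists. That total still held unnamed IDs that closely followed the z1A level, such as GRMZM2G586611 (mean of 131297 RPKM in WT, 454 RPKM in o2). The -6.17 therefore does not come from a scaling free of z1A-like levels. The z1A genes took 22.8% ± 4.43 of the summed RPKM of all IDs in the WT libraries and 0.66% ± 0.749 in those of o2 (SD, n = 3 each; exact two-sided permutation p = 0.1). The difference of -22.1 percentage points became -46.8 when the 10 highest IDs outside the zein lists were left out of the total. Those 10 included unnamed IDs that closely followed the z1A level. Among them were GRMZM2G518465, GRMZM2G514485 and GRMZM2G586611, with WT means of 133959, 133846 and 131297 RPKM. The total over all IDs was 1318538, 696998 and 2588142 RPKM in WT replicates 1 to 3, against 207907, 207265 and 264780 RPKM in o2. The base of these shares thus differed between libraries, while the median over IDs was 1.56 to 1.60 RPKM in all of them. Since each ID counts per length, these shares do not give shares of reads.

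In all, 6 of the 9 genes had a companion, an ID with no name in the reference whose RPKM was a nearly fixed multiple of theirs in all libraries. RPKM of a pair of rows that count the same reads differ by a fixed factor, the ratio of their lengths. GRMZM2G545000 was 2.154 times z1A1_2, with a spread of 0.00773% between the lowest and the highest ratio over 6 libraries, although both had 1188 RPKM or more in WT and at most 30.9 RPKM in o2. GRMZM2G514479 was 1.502 times z1A1_6 (spread 0.104%) and GRMZM2G514485 was 1.34 times z1A1_5 (spread 0.114%). For z1A1_7 the factor to GRMZM2G514469 was 0.777 (spread 0.525%). In the z1A2 group, GRMZM2G487882 stood at 1.17 times z1A2_1 (spread 0.0478%) and GRMZM2G487900 at 1.30 times z1A2_2 (spread 0.154%). No such ID, within a spread of 5%, was found for z1A1_3 or z1A2_3, whose steadiest ratios to any ID spread by 11% and 8.27%, and z1A1_8 was not searched because of its 0. With the companions the share of summed RPKM was 47.3% ± 9.19 in the WT libraries and 1.39% ± 1.58 in those of o2 (SD, n = 3 each), a description, since they were chosen for following a z1A gene. Whether these rows cover the same bases was not tested, as no coordinates of the gene IDs were used.

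The order of the copies by level was tight in WT. In the 3 WT libraries z1A1_7 was 1.17, 1.17 and 1.19 times z1A1_5, and z1A1_5 was 1.18, 1.17 and 1.19 times z1A1_6, while the levels of the trio in replicate 3 were 5.47 to 5.69 times those in replicate 2. The next copy, z1A2_1, was 3.34 to 3.80 times below z1A1_6. It exceeded z1A1_3 by 1.24 to 1.46 times, and z1A1_3 exceeded z1A2_3 by 1.03 to 1.18 times. The neighbours z1A2_3 and z1A2_2 differed by 1.002, 1.17 and 1.01 times, and this mean difference was smaller than its SD. Below them came z1A1_2, then z1A1_8 at 191 to 375 times less than z1A1_2.

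In o2 the trio again stood on top, but z1A1_5 and z1A1_7 were no longer separated. Their ratio was 0.999, 1.21 and 1.10 in o2, against 0.842 to 0.856 in WT, so that the ratios of the genotypes did not overlap. This was not the only such pair, as z1A1_5 over z1A1_6 was 1.17 to 1.19 in WT and 1.25 to 1.39 in o2. Ratios of z1A1_5 over z1A2_2, z1A1_5 over z1A2_3 and z1A1_3 over z1A2_2 were also higher in o2 without overlap. That of z1A1_3 over z1A1_5 was lower in o2 without overlap. The remaining pairs of protein-coding copies overlapped, such as z1A1_6 over z1A1_7 (0.705 to 0.733 in WT, 0.719 to 0.897 in o2). Many of these pairs share a copy, and their ratios were not tested. Below the trio the place of z1A1_3 changed between o2 libraries. It lay between z1A2_1 and z1A2_3 in replicate 1, just above z1A2_1 in replicate 2 (a ratio of 1.01) and below both in replicate 3. The level of z1A2_1 was 1.502, 1.41 and 1.53 times that of z1A2_3 in o2 and 1.46 to 1.52 times in WT. The level of z1A2_1 over that of z1A2_2 was 1.56, 2.00 and 3.05 in o2 and 1.47 to 1.76 in WT, where the ranges overlap.

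The make-up of the z1A level was nearly constant among WT libraries. There z1A1_7 took 31.1% ± 0.517, z1A1_5 took 26.4% ± 0.214 and z1A1_6 took 22.4% ± 0.0739 of the summed z1A RPKM (SD, n = 3). In o2 their shares were 28.2% ± 1.28, 31.1% ± 1.96 and 23.5% ± 1.82 (SD, n = 3). Together the trio held 80.0% ± 0.656 (WT) and 82.8% ± 2.46 (o2), while the z1A2 copies held 14.6% ± 0.60 and 12.2% ± 2.25 (SD, n = 3 each). For each copy the SD of this share was larger over the o2 libraries than over the WT libraries.

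**Figure D3:**
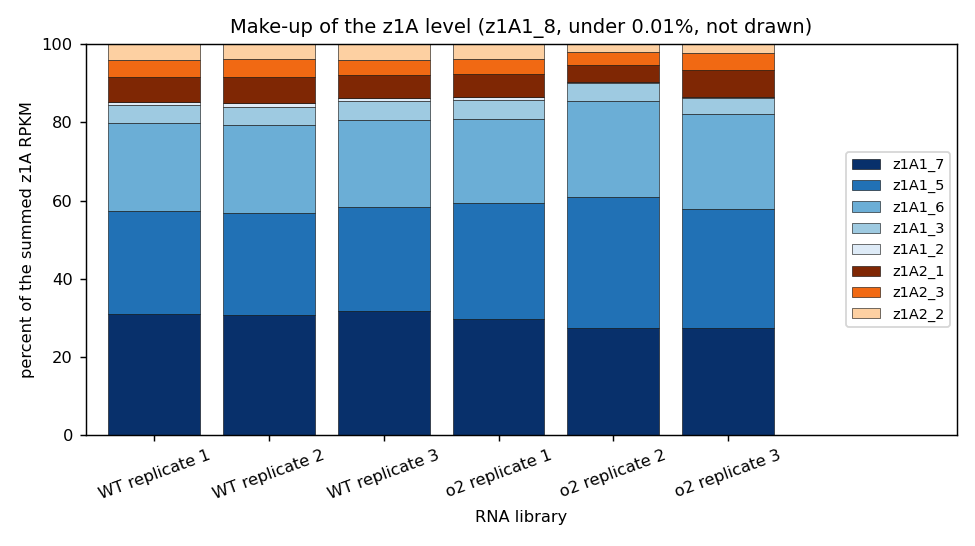
Share of each z1A gene in the summed z1A RPKM (y axis, percent) in each RNA library (x axis), with z1A1 genes in blue and z1A2 genes in brown to orange. The trio z1A1_7, z1A1_5 and z1A1_6 fills 80.0% of the WT bars and 82.8% of the o2 bars on average.

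Copy was compared with copy as the log2 level of each gene minus the mean of the others in the same library. Over all 9 genes, z1A1_2 (-0.80), z1A2_2 (-0.79) and z1A1_3 (-0.20) were lower and z1A1_8 (2.55) higher relative to the others in o2, without overlap between genotypes. The exact two-sided permutation p was 0.1 for each and 0.225 after Benjamini-Hochberg adjustment over 9 copies. The other 5 copies differed by -0.31 to 0.15, with exact permutation p of 0.3 to 0.9 (adjusted p = 0.45 to 0.9). The value of z1A1_8 comes from the pseudocount and enters the mean of the others, so the step was repeated without it, an alternative chosen after the data were seen. Then z1A1_5 stood 0.48 higher in o2 relative to the other 7 copies, without overlap (exact permutation p = 0.1). The relative level of z1A1_2 was -0.49 (exact permutation p = 0.3), that of z1A2_2 was -0.47 (exact permutation p = 0.2), and that of z1A1_3 turned to 0.12 (exact permutation p = 0.3). Both z1A2_1 (0.01) and z1A2_3 (0.03) kept nearly the same mean relative level, with exact permutation p of 1 for each.

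**Figure D4:**
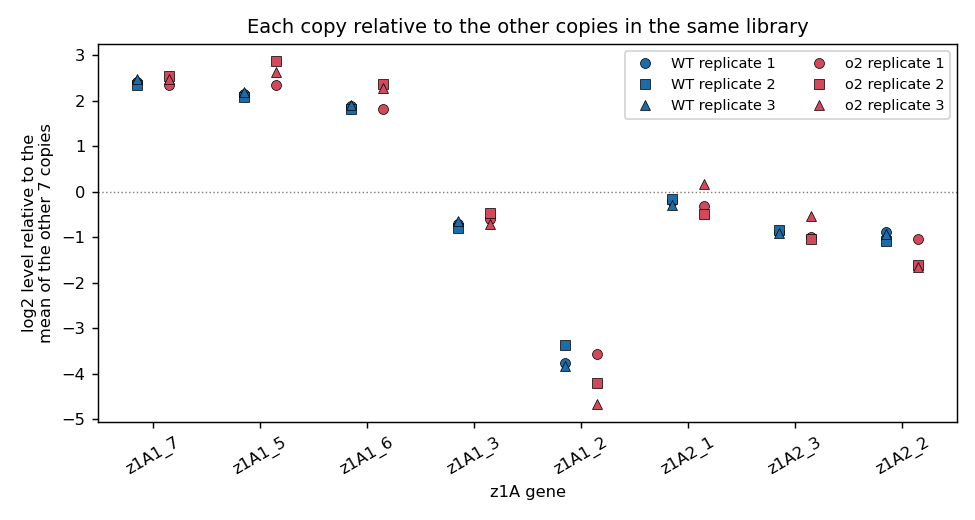
Log2 level of each of the 8 protein-coding z1A copies relative to the mean of the other 7 in the same library (y axis), by gene (x axis), WT left and o2 right of each tick. For each copy the o2 points spread more than its WT points, and only for z1A1_5 do the o2 points lie wholly apart from the WT points.

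Set against z1A1, the z1A2 group was relatively lower in o2 when every gene counted alike. The mean log2 level of z1A2 minus that of z1A1 was 0.95, 0.99 and 1.05 in WT and 0.31, -0.02 and 0.86 in o2, a difference of -0.62 (exact two-sided permutation p = 0.1). It was -0.41 without o2 replicate 2 and -0.86 without o2 replicate 3. The z1A1 mean includes z1A1_8, and without it the values were -0.92, -0.97 and -0.99 in WT and -1.09, -1.46 and -0.94 in o2. That difference was -0.20, with overlapping groups (exact two-sided permutation p = 0.3), so the larger difference rested on the pseudogene. From the summed RPKM of each group it was -0.31 (exact two-sided permutation p = 0.1). The fitted median fold changes were -8.31 for z1A1 and -8.48 for z1A2.

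By median fold change the other alpha zein subfamilies lay on either side of z1A. All 3 tested z1B genes, also of the 19-kDa class, were called lower in limma, with a median log2 fold change of -7.10, but each was called in only 1 of 6 fits that left out a library, the one without o2 replicate 3 (adjusted p up to 0.173 in the others). Of 11 z1C genes, 10 were called lower, with a median of -10.10. Their range, -10.35 to -6.60, takes in the protein-coding z1A copies. Over all genes tested 2.07% were called lower. The mean log2 level of z1A minus that of z1B was 2.55, 2.16 and 2.66 in WT and 2.03, 2.25 and -0.04 in o2, a difference of -1.04 (exact two-sided permutation p = 0.2). It was -0.32 without o2 replicate 3. Without z1A1_8 the groups did not overlap, at a difference of -1.33, and from summed RPKM it was -1.22 (exact two-sided permutation p = 0.1 for both). For z1A minus z1C the values were 2.11, 1.70 and 1.96 in WT and 2.27, 2.71 and 5.37 in o2, a difference of 1.52 without overlap (exact two-sided permutation p = 0.1). Without o2 replicate 3 it was 0.56, and without z1A1_8 the groups overlapped at a difference of 1.24 (exact two-sided permutation p = 0.3). From summed RPKM it was 1.94 (exact two-sided permutation p = 0.2).

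The alpha zein subfamilies differed in that library within the mutant. In o2 replicate 3 the z1A genes were 5.32 to 11.8 times the mean of o2 replicates 1 and 2, with a median of 8.07. The z1B genes were 30.1 to 36.7 times that mean, and the z1C genes 0.474 to 1.25 times. Zeins outside the alpha class stood at 1.84 to 8.83 times, highest for the beta zein gene bz15 and then the gamma zein genes gz16 (3.33) and gz50 (3.24). Over all tested genes the median of this ratio was 1.002, and 95% of genes lay between 0.501 and 1.82. Among the z1A copies the ratio was highest for z1A2_1 (11.8) and z1A2_3 (11.2) and lowest for z1A1_2 (5.32). The o2 gene had 0.254 RPKM there, against 0.212 and 0.173 RPKM in o2 replicates 1 and 2, and the summed z1C level was 48.7 RPKM, against 55.0 and 47.0 RPKM. In WT, replicate 3 stood 1.64 to 3.18 times above the mean of the other two for z1A and 1.90 to 8.22 times for z1C.

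**Figure D5:**
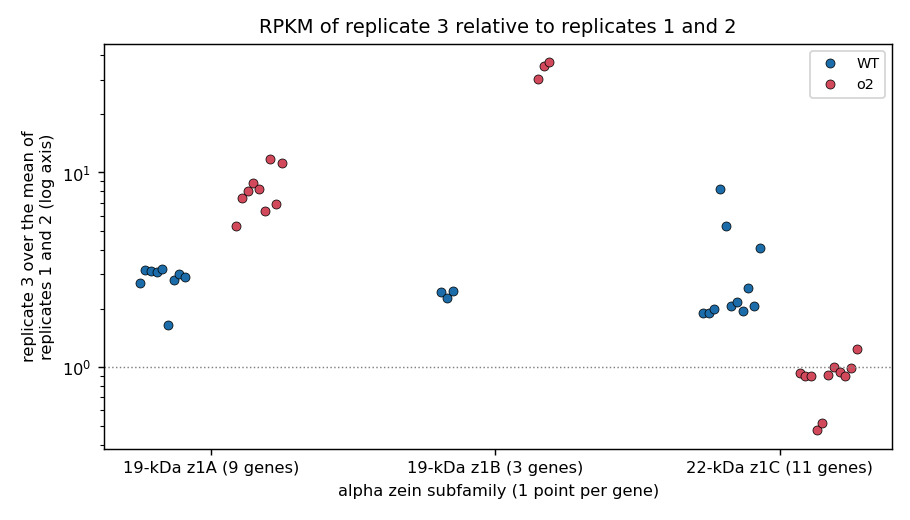
RPKM of replicate 3 divided by the mean of replicates 1 and 2 of the same genotype (log y axis), 1 point per gene, for the z1A, z1B and z1C subfamilies. In o2 the z1A points lie between 5.32 and 11.8 and the z1B points above 30, while the z1C points lie around 1.

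Summed levels of cell type markers also differed in replicate 3. The starchy endosperm markers were highest there in both genotypes, at 4753 RPKM in WT (3332 and 3974 in the others) and 5796 RPKM in o2 (4297 and 4405 in the others). In limma 0 of the 6 starchy endosperm IDs were called between genotypes, against 3.56% of all genes tested. Before adjustment 0 were lower and 3 higher with p under 0.05, against 8.88% lower and 10.3% higher of all genes tested. For the basal transfer layer, the tissue that takes up nutrients from the mother plant, 8 IDs matched 15 marker names. Their summed level was 4.92 to 179 RPKM in WT and 21.7 to 163 RPKM in o2, lowest in replicate 3 of each genotype. The 2 matched embryo markers, of 8 names, summed to 32.0 to 104 RPKM in WT and 3.21 to 19.5 RPKM in o2, lowest in o2 replicate 3. For aleurone, 5 IDs of 7 names gave 17.3 to 33.7 RPKM in WT and 26.2 to 28.3 RPKM in o2. For the embryo-surrounding region, 2 IDs of 6 names gave 0.571 to 13.8 RPKM in WT and 1.32 to 9.75 RPKM in o2. No matched marker was at 0 in every library, and 0 of 7 names of green maternal tissue were matched. The part of cell make-up in the z1A values was not tested.

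Among genes known to regulate zeins, 8 IDs matched 11 names. Of these, 7 IDs were tested in limma, of which 2 were lower, 0 higher and 5 not called. Over all genes tested, 2.07% were called lower and 3.56% in either direction. Their median log2 fold change was 0.11. The o2 gene itself fell (-8.55 ± 0.25 SE, adjusted p = 4.36e-05), as did Nkd2 (GRMZM5G884137), a naked endosperm factor, at -1.29 ± 0.25 (SE; adjusted p = 0.0476), though Nkd2 was called in only 1 of 6 limma fits that left out a library, the one without WT replicate 3 (in the others the adjusted p reached 0.166). Before adjustment, 2 of these IDs were lower and 1 was higher with p under 0.05, against 8.88% lower and 10.3% higher of all genes tested. Of 10 tested IDs for endoplasmic reticulum chaperones and protein bodies, which handle zeins after synthesis, 1 was lower, 0 higher and 9 not called, with a median of -0.16 (before adjustment, 2 lower and 0 higher with p under 0.05). The lower one, the disulfide isomerase gene pdi3 (GRMZM2G134889), was called in 1 of 6 limma fits that left out a library, the one without WT replicate 2 (in the others the adjusted p reached 0.0912). Of 5 beta, gamma and delta zein genes, 2 were lower and 3 not called, with a median of -0.98. They were bz15 and dzs18, of which bz15 was not called without o2 replicate 2 (adjusted p = 0.0509).

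By Pearson correlation over the 6 libraries with the mean z1A log2 level, among 2807 IDs outside the zein lists with a mean of at least 10 RPKM, the closest were IDs without a name. They were GRMZM2G586611 and GRMZM2G518465, followed by the companions GRMZM2G514469, GRMZM2G487900 and GRMZM2G514485, all with r of at least 0.999. The companions were chosen as nearly fixed multiples of z1A genes that enter this mean, so their high r was set in advance. GRMZM2G586611 had 109844, 42390 and 241659 RPKM in WT and 123, 173 and 1067 RPKM in o2, levels like those of z1A1_7. The closest named genes were ALDH7 (GRMZM2G130440, r = 0.983), the ribosome-inactivating protein gene rip1 (GRMZM2G063536, r = 0.982), o2 (r = 0.974), scl1 (GRMZM2G023872, r = 0.970) and mde1 (GRMZM2G155281, r = 0.963). Their falls differed in size, from a log2 fold change of -0.86 for ALDH7 to -7.57 for rip1 and -8.55 for o2. With 2 genotypes far apart these coefficients mostly reflect the step between them, and they are given as a description over 6 libraries that share it.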

How the data were processed

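The authors deposited RPKM values per gene ID, 1 column for each of the 6 RNA libraries, and read numbers by mapping class were deposited as counts per library. Per the submitters' processing notes, the build was B73 RefGen_v3 and the tools included TopHat2 2.0.9, edgeR 3.2.4 and bedtools 2.17.0, with no roles stated. Names came from the RefSeq gene table of Zm-B73-REFERENCE-NAM-5.0, which matched 12658 of 28580 IDs and all 9 z1A IDs. From it names, gene types and neighbours were used, and no coordinates.

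RPKM does not allow a count test. Genes with 1 RPKM or more in at least 3 of 6 libraries (18687) were fitted as log2(RPKM + 0.1) in R 4.3.3 with limma 3.58.1 (lmFit, eBayes with trend, genotype as the only term) with calls made where the adjusted p (Benjamini-Hochberg) was under 0.05. On this scale fold changes understate changes of low genes. Single values were compared with exact two-sided permutation tests over libraries (scipy 1.17.1). The limma and permutation steps were tested on simulated data. Companions were defined by a ratio to a z1A gene that varied by at most 5% over the 6 libraries, a search added after the data were seen.

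The members, lists and tests were chosen with earlier results of these data known. Named genes are the z1A members, o2, genes of the lists below described by counts, medians or ranges, and the 5 IDs and 5 named genes most correlated with the mean z1A level. Nkd2, pdi3, bz15, dzs18, gz16, gz50 and the single starchy endosperm markers were named after their values were seen. The other lists were z1B, z1C, z1D (no ID matched), beta, gamma and delta zeins, zein regulators, endoplasmic reticulum and protein body genes, and markers of starchy endosperm, basal transfer layer, aleurone, embryo, embryo-surrounding region and green maternal tissue. Alternatives changed the pseudocount, filter, variance model, scaling, block and libraries used. The peak list was not used here, since no annotation of its build was at hand.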

Additional observations from a re-analysis of the deposited data

How the results depend on the processing

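All 9 z1A genes kept a negative fold change under every alternative run. The number called lower was 9 in the reported fit and 8 or 9 under the other settings (8 of 8 tested with a filter of 5 RPKM), and 2 to 9 when 1 library was left out. Calls over all genes in the fits with 1 library left out ranged from 98 to 777, against 666 in the reported fit. The median log2 fold change was -6.72 under quantile normalization and -6.31 when rescaled to the total of genes outside the zein lists, which moved the median of all tested genes to 2.08. In that fit 17895 of 18687 genes were called higher. The scaling total still held the companions, whose mean share of all RPKM was 24.5% for WT libraries and 0.728% for o2 libraries. The -6.31 is thus not a value from a zein-free scaling. With 1 library left out the z1A median ranged from -9.47 to -7.78. With the replicate block all 9 z1A genes were called and the median stayed at -8.45, while calls over all genes went from 666 to 340. In the gene lists, Nkd2 and pdi3 were no longer called and 0 calls were gained. Same-numbered libraries did not all deviate together (r = -0.02, 0.06 and 0.32 for numbers 1 to 3), so the numbers were not taken as pairs. The share of z1A in the summed RPKM differed by -22.1 percentage points, and by -46.8 when the 10 highest IDs outside the zein lists were left out of the total. Those 10 included IDs that closely followed the z1A level, among them the companion GRMZM2G514485. Copy comparisons turned sign only where they were small. The relative level of z1A1_5 was -0.26 with a pseudocount of 1, and that of z1A1_6, at -0.04, was 0.083 from summed RPKM and -0.20 to 0.18 with 1 library left out. Without z1A1_8, chosen after the data were seen, z1A1_3 stood at 0.12, z1A1_6 at 0.28, z1A1_7 at 0.049, z1A2_1 at 0.011 and z1A2_3 at 0.027. Without z1A1_8 the mean of the other copies no longer holds its value, which comes from the pseudocount. The cause of the other changes was not tested. The summed RPKM form could not be run for z1A1_8, which is listed at 0 in 1 library. With 3 libraries per genotype no permutation test could pass 0.05.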
